A study of Bos taurus with 7 samples.

Results

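The inhibin, activin and follistatin system was measured by RNA sequencing in whole bovine preantral follicles. It was taken as 9 genes chosen by name, all of which were found among the 23704 genes of the series. These were the subunits *INHA*, *INHBA* and *INHBB*, the antagonists *FST* and *FSTL3*, and the receptors *ACVR1B*, *ACVR2A*, *ACVR2B* and *TGFBR3*. The 7 libraries comprised 4 of primary follicles (PF), in which the oocyte is enclosed by a single sheet of cuboidal granulosa cells, and 3 of early secondary follicles (SF), in which the granulosa cells form a few layers. Both classes were isolated mechanically from ovaries of young Holstein Friesian cattle and retrieved at T0, without any treatment that distinguished them. According to the study's methods, the follicles of many animals were pooled into replicates, and all of them spent a short recovery period in medium holding FSH and insulin before lysis. Replicates are separate pools, but the sources used here do not say which animals went into each. The p-values therefore describe the spread between these libraries alone, which may be technical.

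The system works through a shared set of subunits. The alpha subunit, encoded by *INHA*, pairs with a beta subunit to form inhibin, whereas pairs of beta subunits form activin. Activin binds a type II receptor, which recruits the type I receptor ACVR1B and activates SMAD2 and SMAD3, and follistatin binds activin and keeps it from its receptors. Inhibin competes for the type II receptors with the help of betaglycan, the product of *TGFBR3*. Granulosa cells are the main ovarian source of inhibin, which restrains FSH secretion from the pituitary.

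Library totals were 18788105 to 23764615 estimated counts. Levels are in TPM, a relative abundance that takes transcript length into account, so that genes can be compared with each other. PF replicate 4 stood apart and was left out of the tests, following the study's methods. Its value is still given for each member. Its 8 stromal fibroblast markers summed to 5843 TPM (*OGN* at 0), against 418 to 618 TPM in the other PF libraries and 216 to 524 TPM in SF. Its 6 theca markers summed to 1515 TPM (*CYP17A1* at 0), against 166 to 252 and 299 to 412 TPM. All 14 oocyte markers reached 1 TPM in PF replicates 1 to 3, and 12 to 14 did in SF. Their sum was 2130 to 4178 TPM in PF replicates 1 to 3 and 1571, 1212 and 194 TPM in SF replicates 1 to 3. In PF replicate 4 it was 392 TPM, with 12 of the markers at 1 TPM. Of 15 granulosa markers, 12 or 13 reached 1 TPM in PF and 14 in SF. Their sums were 1425 to 2026 TPM in PF replicates 1 to 3, 2176 TPM in PF replicate 4 and 5573 to 6164 TPM in SF. *NR5A2* was at 0 in PF replicates 1 to 3 and SF replicate 1. The 5 immune markers summed to 40.8 to 89.2 TPM in PF replicates 1 to 3 and 3.92 to 18.8 TPM in SF. In PF replicates 1 and 2 this sum came from *CSF1R*, with *CD14*, *CD3E*, *CD68* and *PTPRC* at 0, whereas no immune marker was at 0 in SF replicates 1 and 2. The higher sum in PF is therefore not shared by the list. The 4 smooth muscle and pericyte markers summed to 63.5 to 115 TPM and 152 to 217 TPM, and the 5 endothelial markers to 6.28 to 15.5 TPM and 1.68 to 6.19 TPM. The part of these sums in the differences between SF and PF was not tested.

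The 9 genes differed widely in level. In PF replicates 1 to 3 the mean was 745 ± 252 TPM for *INHA* (SD, n = 3), 64.3 ± 92.6 TPM for *FST* and 34.6 ± 57.8 TPM for *INHBA*. *ACVR2A*, *FSTL3*, *ACVR2B* and *TGFBR3* followed at 6.90 to 4.87 TPM, with *ACVR1B* at 1.55 ± 1.08 TPM and *INHBB* last at 0.154 ± 0.154 TPM. In SF the order was *INHA* (1461 ± 410.0 TPM), *FST* (255 ± 61.6 TPM) and *INHBA* (53.9 ± 88.1 TPM), then *TGFBR3*, *FSTL3*, *ACVR2A* and *ACVR2B* at 15.8 to 8.93 TPM, *ACVR1B* (2.00 ± 0.632 TPM) and *INHBB* (0.373 ± 0.449 TPM). In PF the ranges of mean ± SD of neighbours from *FST* down to *TGFBR3* overlapped, as did those from *INHBA* down to *ACVR2B* in SF. *INHA* lay apart from the next gene in both classes, and so did *INHBB* at the other end.

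**Figure D1:**
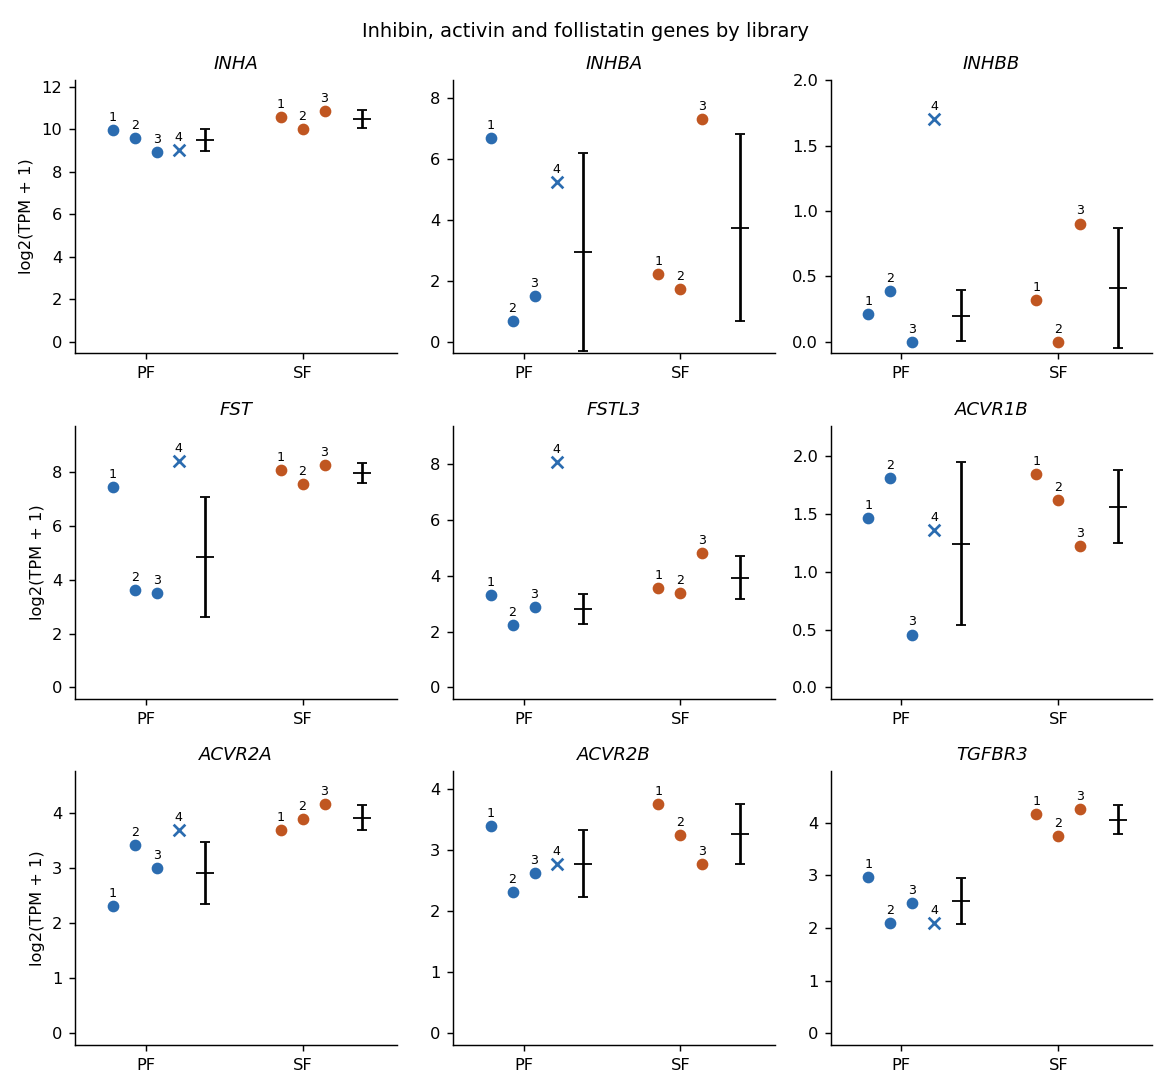
Level of each of the 9 genes in each library as log2(TPM + 1), numbered by replicate. Circles mark the libraries compared, the cross marks PF replicate 4, and bars give mean ± SD (n = 3 per class). *INHA* and *TGFBR3* lie higher in every SF library than in every PF library, *INHBA* is high in PF replicate 1, PF replicate 4 and SF replicate 3, and *FSTL3* reaches 268 TPM in PF replicate 4.

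SF were compared with PF to follow these genes over the step from 1 granulosa layer to several. *INHA* and *TGFBR3* were upregulated in SF, and none of the 9 genes was downregulated. The 2 calls came from the Wald test of DESeq2 across all genes with a Benjamini-Hochberg adjusted p below 0.05, in which 19.1% of the 15056 genes tested were called, 8.14% as higher in SF and 11% as lower. Of the other members, 6 did not pass and *INHBA* received no adjusted p. At an unadjusted p below 0.05 there were 5 members in DESeq2 and 5 in edgeR, against 25.6% and 21.3% of all genes. With PF replicate 4 kept, 2 members were called, against 5.82% of all genes. The fitted log2 fold change was above 0 for all 9, with a median of 1.32 over the 8 members with an adjusted p and of 0.02 over all genes tested. The TPM of the 3 PF and 3 SF libraries did not overlap for 5 members (*INHA*, *FST*, *FSTL3*, *ACVR2A* and *TGFBR3*), in all cases with SF above PF. This held for 32.7% of all genes tested, and with SF above PF for 14.3%. With PF replicate 4 included 3 of them still did not overlap (*INHA*, *ACVR2A* and *TGFBR3*), against 12.8% of all genes.

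*INHA*, the alpha subunit of inhibin, had 982, 771 and 481 TPM in PF replicates 1 to 3 and 515 TPM in PF replicate 4. In SF it had 1522, 1023 and 1836 TPM. Every SF library lay above every PF library, with a narrow gap between PF replicate 1 and SF replicate 2. The log2 fold change of SF over PF was 1.15 ± 0.39 (SE, DESeq2 adjusted p = 0.023), an increase of the mean TPM of 1.96 times. The call remained with PF replicate 4 kept (DESeq2 adjusted p = 0.035) but was lost when PF replicate 2, PF replicate 3, SF replicate 1 or SF replicate 3 was left out (0.10, 0.071, 0.064 and 0.064), in edgeR (0.11) and in limma (0.098 to 0.16). Over the 18 alternatives the adjusted p ranged from 3.2e-04 to 0.43. The difference in log2(TPM + 1) was 0.81 within library numbers below 40 and 1.51 within those above 40, where the library number is the one in each library's name. Here and below, the range below 40 sets SF replicate 1 alone against PF replicates 1 and 2. The range above 40 sets SF replicates 2 and 3 against PF replicate 3 alone, with PF replicate 4 (number 47) left out.

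The rise of *INHA* stood beside the higher sum of granulosa markers in SF given above. In bulk RNA of whole follicles, fewer cells of a type and less RNA per cell cannot be told apart. Relative to that sum, the TPM of *INHA* was 48.5%, 54.1% and 25.3% in PF replicates 1 to 3, 23.6% in PF replicate 4 and 26.2%, 16.6% and 33.0% in SF. The classes overlapped on this scale. With DESeq2 size factors taken from the granulosa markers, the log2 fold change of *INHA* was -0.45 (DESeq2 adjusted p = 0.43), and 7 of the 9 members had a value below 0. None of the 9 was called on that scale, against 45.6% of all genes. Among all genes 6918 were called as lower in SF and 94 as higher. That scaling moved the median of all genes to -1.51, so *INHA* still lay above the median. The granulosa markers include *AMH*, which the study reported as upregulated in SF. They also include *FOXL2* and *WNT6*, whose expression the study described as similar across stages. Whether the marker sum or the size factors follow the content of granulosa cells was not tested.

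*INHBA*, the beta A subunit of activin A and inhibin A, varied more within each class than between them. It had 101, 0.604 and 1.81 TPM in PF replicates 1 to 3, 36.6 TPM in PF replicate 4, and 3.60, 2.33 and 156 TPM in SF. The highest library, SF replicate 3, held 257 times the TPM of the lowest, PF replicate 2, where the gene had 16 estimated counts against 3566 in SF replicate 3. One library of each class was therefore far above the other libraries compared. The log2 fold change was 1.04 ± 2.15 (SE), with a 95% interval from -3.18 to 5.26. DESeq2 gave it no p because of an outlying count by Cook's distance, and edgeR's adjusted p was 0.76. Without SF replicate 3 the log2 fold change was -3.25, and without PF replicate 1 it was 5.52. The difference in log2(TPM + 1) was -1.48 within library numbers below 40 and 3.02 within those above 40.

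*INHBB*, the beta B subunit, was close to the detection limit. It had 7, 14 and 0 estimated counts in PF replicates 1 to 3, 92.1 in PF replicate 4, and 13, 0 and 39 in SF. This corresponded to 0.155, 0.307 and 0 TPM, 2.26 TPM, and 0.248, 0 and 0.872 TPM. A count of 0 allowed up to 0.0667 TPM in PF replicate 3 and 0.0690 TPM in SF replicate 2, taking 3 counts as the limit and counting error alone. No difference between the classes was detectable at this depth (log2 fold change 1.57 ± 2.39, DESeq2 adjusted p = 0.70). Of the beta subunit TPM, *INHBA* made up 66.3% in PF replicate 2 and 93.6% to 100% in the other 6 libraries.

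The alpha to beta ratio, *INHA* over the sum of *INHBA* and *INHBB* with 0.1 TPM added to both terms, followed *INHBA*. It was 9.67, 763 and 252 in PF replicates 1 to 3 and 13.2 in PF replicate 4. In SF it was 385, 421 and 11.7. Alpha subunit transcripts thus outnumbered those of the beta subunits in all 7 libraries, least in PF replicate 1, PF replicate 4 and SF replicate 3, the libraries with the most *INHBA*. The log2 ratio averaged 6.94 ± 3.28 in PF and 6.95 ± 2.95 in SF (SD, n = 3 per class). The classes differed by 0.012, which an exact two-sided permutation test did not call (p = 1 over 20 splits, the smallest possible being 0.1, and 1 after adjustment over the 4 ratios tested). It was 0.82 with PF replicate 4 kept (exact permutation p = 0.77 over 35 splits), and -1.82 to 1.71 when 1 library was left out, the lowest without PF replicate 1 and the highest without SF replicate 3. Within library numbers below and above 40 it was 2.17 and -1.84.

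The beta A to beta B ratio spread as widely. It was 397, 1.73 and 19.1 in PF replicates 1 to 3, 15.6 in PF replicate 4, and 10.6, 24.3 and 160.2 in SF. The values of PF replicate 3 and SF replicate 2 are set by the 0.1 TPM added, since *INHBB* was at 0 there. The classes overlapped, with a difference in mean log2 ratio of 0.55 (exact permutation p = 0.9, adjusted 1) and of -1.30 and 1.71 within library numbers below and above 40.

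**Figure D2:**
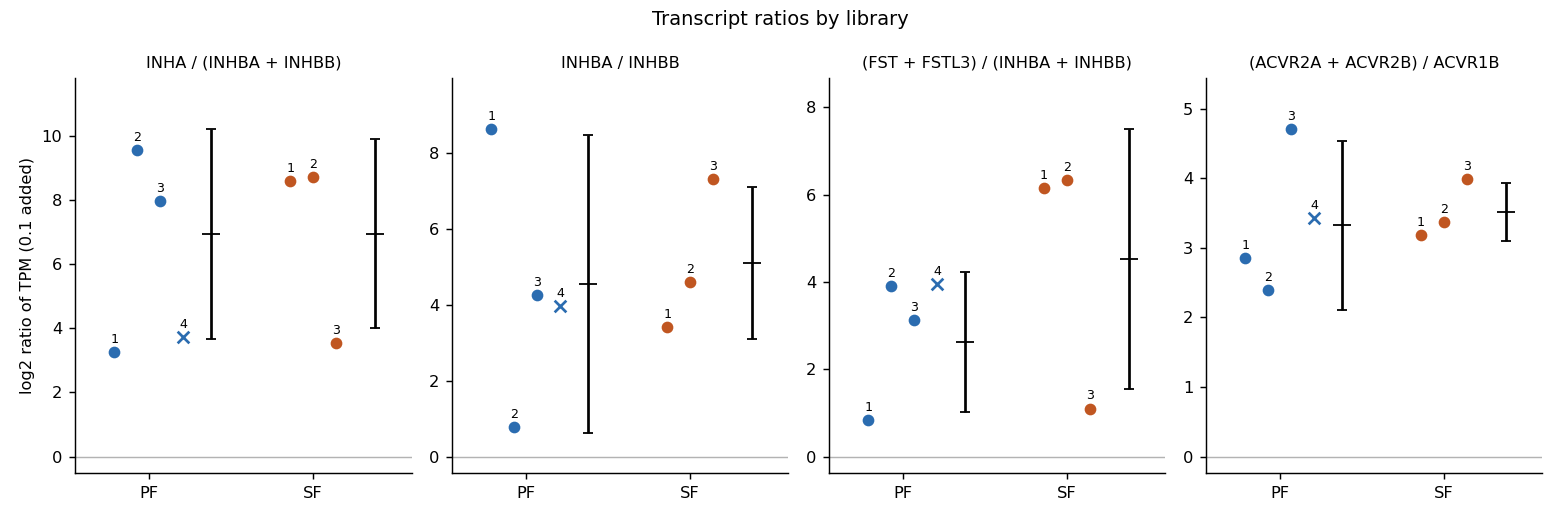
Log2 ratios of TPM, with 0.1 TPM added to both terms, in each library, numbered by replicate. Circles mark the libraries compared, the cross marks PF replicate 4, and bars give mean ± SD (n = 3 per class). The alpha to beta ratio lies between 3.27 and 3.72 in PF replicates 1 and 4 and SF replicate 3 and between 7.98 and 9.57 in the other libraries, and the classes overlap in all 4 panels.

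Follistatin, *FST*, which binds activin almost irreversibly, had 171, 11.4 and 10.2 TPM in PF replicates 1 to 3. It had 336 TPM in PF replicate 4, and 269, 188 and 309 TPM in SF. The SF libraries were alike, whereas in PF replicate 1 the level was near theirs and in replicates 2 and 3 it was far below. PF replicate 4 exceeded every SF library. The log2 fold change was 2.28 ± 0.94 with a 95% interval from 0.43 to 4.12 and did not pass (DESeq2 adjusted p = 0.070). Without PF replicate 1 it was 4.66 and passed (DESeq2 adjusted p = 1.0e-22), and with PF replicate 4 kept it was 1.02 (0.66), where over all alternatives the adjusted p ran from 1.0e-22 to 0.66. It also passed with the library number as a covariate (log2 fold change 3.21, DESeq2 adjusted p = 0.0048). The difference in log2(TPM + 1) was 2.55 and 4.43 within library numbers below and above 40. The latter rests on PF replicate 3 alone and leaves out PF replicate 4, whose 336 TPM exceeded SF. Scaled by the granulosa markers the log2 fold change was 0.56 (DESeq2 adjusted p = 0.64).

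*FSTL3*, a follistatin-like protein that also binds activin, had 8.89, 3.70 and 6.32 TPM in PF replicates 1 to 3 and 10.9, 9.51 and 27.2 TPM in SF. In PF replicate 4 it had 268 TPM, beside high sums of the stromal, theca and smooth muscle markers. Not every marker of these lists was high in that library, and their part in this level was not tested. The SF libraries lay above PF replicates 1 to 3 by a small margin. The log2 fold change was 1.50 ± 0.65 and did not pass (DESeq2 adjusted p = 0.090). It was 0.77 without SF replicate 3 (0.45) and -2.19 with PF replicate 4 kept, with no p by Cook's distance. *FST* exceeded *FSTL3* in all 7 libraries.

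The ratio of antagonist to beta subunit transcripts, *FST* plus *FSTL3* over *INHBA* plus *INHBB*, was 1.77, 15.0 and 8.72 in PF replicates 1 to 3 and 15.5 in PF replicate 4. In SF it was 70.8, 81.2 and 2.14. SF replicates 1 and 2 had the highest ratios of all libraries, and PF replicate 1 and SF replicate 3, where *INHBA* was highest, the lowest. The difference in mean log2 ratio was 1.91 and did not pass (exact permutation p = 0.3, adjusted 1), with 3.78 and 0.60 within library numbers below and above 40.

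Of the receptors, betaglycan showed the clearest difference. *TGFBR3* had 6.80, 3.26 and 4.56 TPM in PF replicates 1 to 3, 3.26 TPM in PF replicate 4, and 16.9, 12.5 and 18.2 TPM in SF. All SF libraries lay above all 4 PF libraries. The log2 fold change was 1.84 ± 0.42 (DESeq2 adjusted p = 3.9e-04), a mean TPM 3.25 times that of PF. The call held with PF replicate 4 kept and with each library left out in turn, at 1.59 to 2.04 on the log2 scale (DESeq2 adjusted p up to 0.0055). It did not hold in edgeR (0.067), in limma (0.061 to 0.075) or with size factors from the granulosa markers (log2 fold change 0.27, DESeq2 adjusted p = 0.70), and over all alternatives the adjusted p ran from 9.2e-06 to 0.70. The difference in log2(TPM + 1) was 1.64 and 1.53 within library numbers below and above 40. Relative to the granulosa marker sum *TGFBR3* was 0.228% to 0.336% in PF replicates 1 to 3 and 0.202% to 0.326% in SF, so the classes overlapped. It was 0.150% in PF replicate 4, below every SF library.

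Neither type II receptor passed the test. *ACVR2A* had 3.95, 9.71 and 7.05 TPM in PF replicates 1 to 3, 11.99 TPM in PF replicate 4, and 12.03, 13.9 and 16.9 TPM in SF. The SF libraries were higher than all PF libraries, with almost no gap between PF replicate 4 and SF replicate 1. The log2 fold change was 1.14 ± 0.49 (95% interval 0.18 to 2.10), which did not pass (DESeq2 adjusted p = 0.084). *ACVR2B* had 9.45, 3.97 and 5.19 TPM in PF replicates 1 to 3, 5.79 TPM in PF replicate 4, and 12.5, 8.49 and 5.85 TPM in SF. Here PF replicate 1 lay above SF replicates 2 and 3, and the log2 fold change of 0.65 ± 0.55 did not pass (DESeq2 adjusted p = 0.44).

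The type I receptor was the lowest of the receptors. *ACVR1B* had 1.76, 2.51 and 0.373 TPM in PF replicates 1 to 3, 1.57 TPM in PF replicate 4, and 2.60, 2.08 and 1.34 TPM in SF. The classes overlapped (log2 fold change 0.53 ± 0.77, 95% interval -0.99 to 2.04, DESeq2 adjusted p = 0.69). Only 1 of the 3 RefSeq transcripts of *ACVR1B* was matched, so its level may be incomplete, as may that of *ACVR2B* with 1 of 3 and that of *TGFBR3* with 4 of 5. The ratio of type II to type I receptor transcripts was 7.25, 5.28 and 26.0 in PF replicates 1 to 3, 10.7 in PF replicate 4, and 9.12, 10.3 and 15.8 in SF. The highest value came from the low *ACVR1B* of PF replicate 3. The difference in mean log2 ratio was 0.19 (exact permutation p = 0.8, adjusted 1), with 0.56 and -1.03 within library numbers below and above 40.

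**Figure D3:**
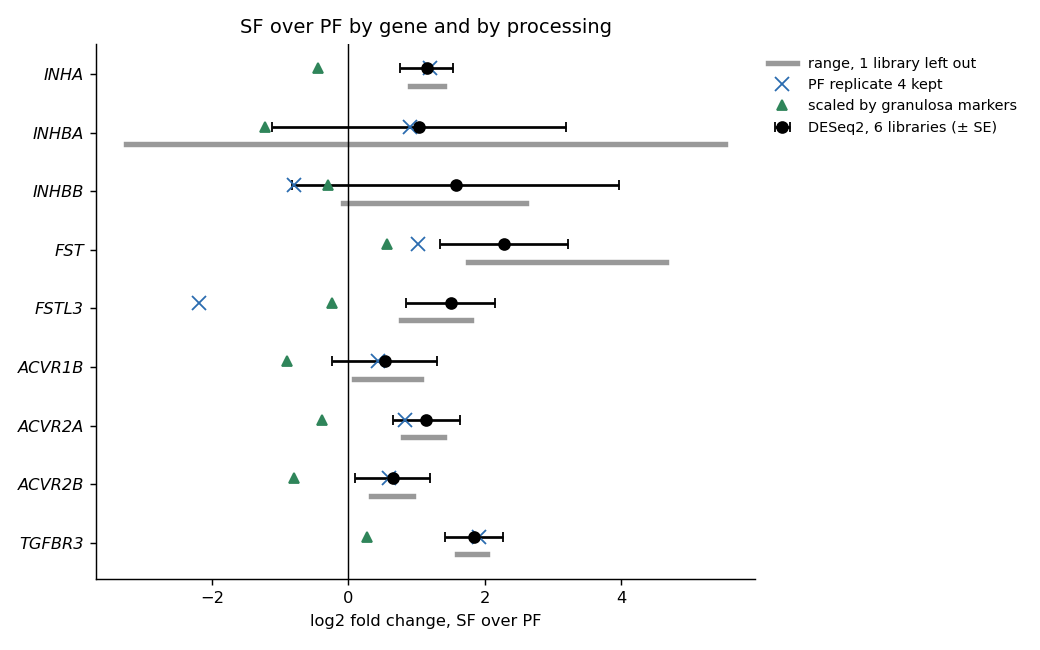
Log2 fold change of SF over PF for each gene, with black circles and bars for DESeq2 ± SE on 6 libraries, blue crosses with PF replicate 4 kept, green triangles with size factors from the granulosa markers, and grey lines for the range when 1 library is left out. *INHBA* runs from -3.25 to 5.52, *FSTL3* turns to -2.19 with PF replicate 4 kept, and *FST* and *TGFBR3* stay above 0 throughout.

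The 3 genes with several matched RefSeq transcripts differed in how steadily reads fell on them. For *FST*, NM_175801.3 (1273 bases) held 75.3%, 88.7% and 88.8% of the TPM in PF replicates 1 to 3, 80.8% in PF replicate 4 and 68.1%, 73.6% and 73.4% in SF. The share was lower in SF than in every PF library, by a small margin to PF replicate 1, and the predicted XM_005221517.4 (1507 bases) held 0% to 7.4% in PF and 8.0% to 10.8% in SF. For *INHBA*, NM_174363.2 (1668 bases) held 64.8% to 90.6% in 6 libraries and 9.9% in PF replicate 2, which had 16 counts of the gene. For *TGFBR3* no transcript led in all libraries. XM_005204335.4 (4777 bases) held 67.9% and 73.4% in PF replicates 3 and 1 and 63.4% in PF replicate 4, but 28.1%, 0% and 0% in SF. XM_005204336.4 (4806 bases) held 44.8%, 60.2% and 79.9% in SF. In PF replicate 2 the latter held 47.6% and XM_024990080.1 (4872 bases) 52.4%. The models are close in length and Salmon divides shared reads between them by estimate, so these shares are less certain than the level of the gene, and no test was made.

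**Figure D4:**
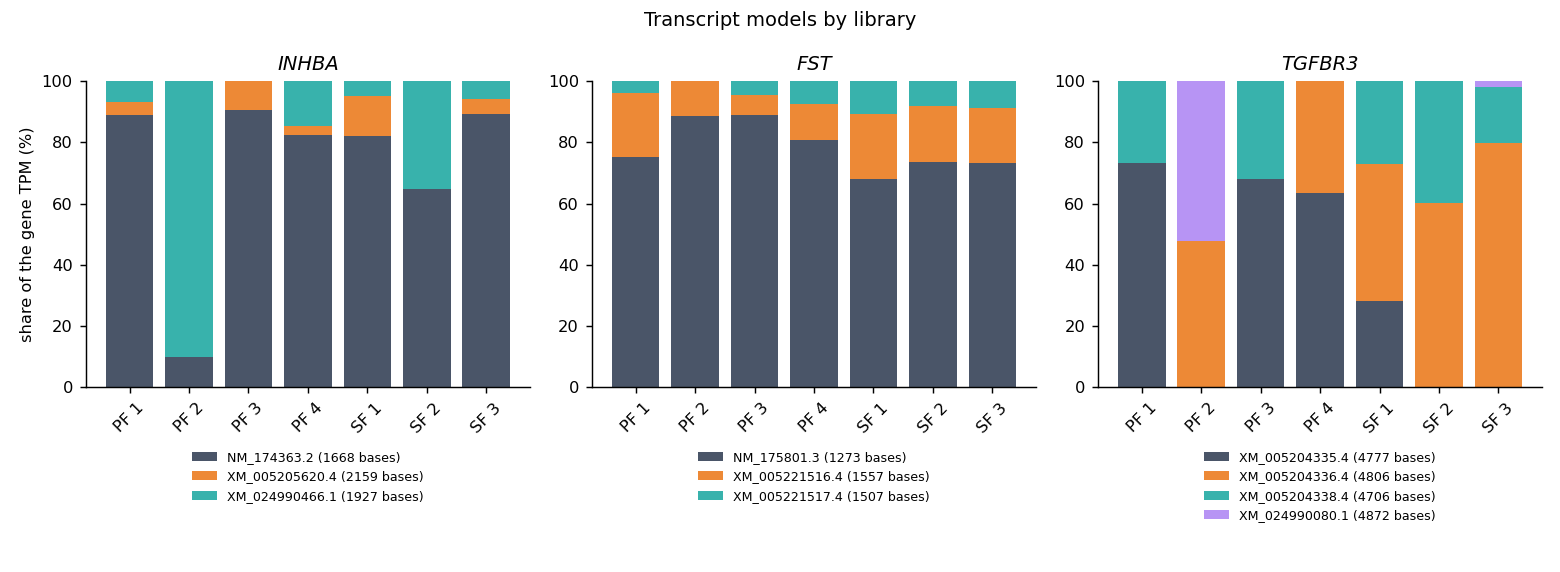
Share of the gene's TPM (%) assigned to each matched RefSeq transcript in each library, for *INHBA*, *FST* and *TGFBR3*. NM_175801.3 leads for *FST* in all 7 libraries, whereas for *TGFBR3* XM_005204336.4 leads in the 3 SF libraries, XM_005204335.4 in PF replicates 1, 3 and 4, and XM_024990080.1 in PF replicate 2.

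The genes that most resembled the members across the 7 libraries were sought by the Pearson correlation of log2(TPM + 1) over 8128 genes with a mean of 10 TPM or more. For *INHBB*, 8129 genes were compared. This is a description across both classes and PF replicate 4, so the differences in marker sums given above run through it. The genes named are the highest of many correlations over 7 libraries, where unrelated genes can also reach high values, and no test was made. For *INHA* they were *PLPBP* (r = 0.96), the ribosomal protein gene *RPL10A* (0.95) and the serine protease inhibitor gene *SERPINA5* (0.95). For *INHBA* they were the chaperonin subunit *CCT4* (0.97), the S6 kinase *RPS6KB1* (0.92) and *PRDM4* (0.92). *CCT4* had 237, 260 and 273 TPM in PF replicates 1 and 4 and SF replicate 3, where *INHBA* was highest, and 138 to 166 TPM in the other 4. For *FST* they were *SUPT16H* (0.98), the kinase *MAPK13* (0.97) and *SIPA1L2* (0.97). For *INHBB* they were *CDH11*, *ENO1* and *SMOC2* (0.99 each), all with their highest level in PF replicate 4.

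Of 29 other genes of the pathway, 26 were matched, 20 received an adjusted p, and 4 were called, 3 of them upregulated and 1 downregulated in SF. These 4 of 20 are close to the 19.1% called among all genes tested, so the count is not a result about the pathway. The median of the log2 fold changes of the 20 was 0.62, against 0.02 over all genes tested. *SMAD4*, the common SMAD, went from 39.4 ± 5.72 TPM in PF to 92.1 ± 21.6 TPM in SF (SD, n = 3 each, log2 fold change 1.28 ± 0.35, DESeq2 adjusted p = 0.0031). *SMAD2*, which transmits the activin signal, went from 139 ± 32.9 to 193 ± 24.7 TPM (0.79 ± 0.29, DESeq2 adjusted p = 0.037). The corepressor *TGIF1* went from 119 ± 3.83 to 204 ± 12.8 TPM (0.85 ± 0.26, DESeq2 adjusted p = 0.0089). *SMURF1*, a ubiquitin ligase that marks SMADs and receptors for degradation, was downregulated from 37.4 ± 13.9 to 8.52 ± 3.62 TPM (-2.02 ± 0.41, DESeq2 adjusted p = 4.7e-05). *SMAD3* did not pass (37.1 ± 8.81 and 36.7 ± 14.9 TPM, log2 fold change 0.13 ± 0.46, DESeq2 adjusted p = 0.88), nor did the pseudoreceptor *BAMBI* (173 ± 38.1 and 305 ± 46.3 TPM, 0.90 ± 0.37, DESeq2 adjusted p = 0.072).

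These calls depended on the libraries to different degrees. That of *SMURF1* held with each library left out and when PF replicate 4 was added (DESeq2 adjusted p = 0.037), whereas those of *SMAD4* and *TGIF1* ended with PF replicate 4 kept (0.25 and 0.064). The call of *SMAD2* was lost when PF replicate 1, 2 or 3, or SF replicate 2 or 3, was left out (0.084, 0.19, 0.055, 0.17 and 0.080) and, on all 6 libraries, with the transcript length offset (log2 fold change 0.61, DESeq2 adjusted p = 0.11). That of *TGIF1* was lost without PF replicate 1, PF replicate 2 or SF replicate 2 (0.067, 0.075 and 0.063). With size factors from the granulosa markers *SMAD4*, *SMAD2* and *TGIF1* turned below 0 (-0.33, -0.77 and -0.64, none called), above the median of all genes of -1.51, and *SMURF1* fell further (-3.48). With size factors from the oocyte markers, under which the median of all genes was 2.60, *SMURF1* turned to 0.39 (DESeq2 adjusted p = 0.69). In edgeR none of the 4 was called (0.061 to 0.15). *INHBC*, the beta C subunit, and *ACVR1C*, another type I receptor, were at 0 TPM in all 7 libraries.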

How the data were processed

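Total RNA of pooled follicles was converted to amplified cDNA (SMART-Seq v4, not stranded). Per the study's methods and the submitters' notes, reads were trimmed (Trim Galore, fastp) and quantified with Salmon against the ARS-UCD1.3 transcriptome. The authors deposited, per library, an estimated count and a TPM for each of 76123 RefSeq transcripts. Of these, 50205 (66%) were matched by accession, version ignored, to 23704 genes of a RefSeq table of ARS-UCD2.0, used for names alone, so no coordinates are given. Unmatched transcripts held 9.71% to 10.7% of the counts. Salmon shares reads between similar transcripts, so counts need not be whole. They were summed per gene and rounded. TPM were summed per gene. No pair of libraries of a class was a duplicate (chi-square per degree of freedom of 102 to 659).

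Genes were tested with DESeq2 1.42.0 (Wald test, median-of-ratios size factors, R 4.3.3) on PF replicates 1 to 3 and SF replicates 1 to 3. Alternatives were edgeR 4.0.16 (quasi-likelihood), limma 3.58.1 with a mean-variance trend (genes at 1 TPM in 3 libraries, 1 or 0.1 TPM added before taking log2), TMM factors, size factors from the granulosa or oocyte markers, a transcript length offset, a filter of 10 counts in 3 libraries, PF replicate 4 kept, the library number as a covariate, a replicate block, and each library left out. Limma without the trend and the count at unadjusted p below 0.05 were added after seeing the data. The labels do not say what library numbers mean. Those of PF replicate 1, PF replicate 2 and SF replicate 1 are below 40. Ratios were compared with exact two-sided permutation tests over libraries, adjusted over 4 ratios. Scripts were tested on simulated data and run with Python 3.11.15 (pandas 2.3.3, numpy 2.4.6, scipy 1.17.1, matplotlib 3.10.9). The members and lists were chosen with earlier results of these data known. Named were all members, called pathway genes (at most 6), *BAMBI* and others above 100 TPM, and the 3 likest genes of 4 members. *SMAD3*, *INHBC* and *ACVR1C* were named after their values were seen. *CFC1*, *MAGI2* and *TGFBR3L* were not analysed here. Reads carried no molecular identifiers, so limits cover counting error only.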

Additional observations from a re-analysis of the deposited data

Results flagged for a closer look

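In the 4 PF libraries the 9 genes and the 4 log2 ratios were searched for a library far from the rest, by the gap to its neighbour as a share of the whole range (Dixon's test at its 95% limit). This was the case for 2 of the 13 measures. The limit allows about 1 in 20 by chance for independent and normally distributed values, which TPM and ratios that share genes need not be. PF replicate 4 had also already been set apart by the study, so these 2 cases are a description. For *FSTL3* the share was 0.98, with PF replicate 4 at 268 TPM against 3.70 to 8.89 TPM. For *INHBB* it was 0.864, with PF replicate 4 at 2.26 TPM against 0 to 0.307 TPM. The stromal fibroblast, theca and smooth muscle markers of PF replicate 4 summed to 5843, 1515 and 731 TPM. The other PF libraries had at most 618, 252 and 115 TPM. In PF replicate 4 *OGN* and *CYP17A1* were at 0, and 2 of the 4 smooth muscle and pericyte markers reached 1 TPM. The part of these sums in both values was not tested.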

How the results depend on the processing

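Across all genes DESeq2 called 2876, edgeR 0 (at unadjusted p below 0.05, 4800 and 4044), limma 792 on log2(TPM + 1), 3 without the trend and 2 on log2(TPM + 0.1), DESeq2 7012 with granulosa and 9065 with oocyte size factors, 858 with PF replicate 4 kept, and 1887 (without PF replicate 2) to 3947 with 1 library left out. Of the 9 members, 2 were called by DESeq2 and 0 by edgeR, all 3 limma fits and granulosa scaling, where an unadjusted p below 0.05 was reached by 5 in DESeq2, 5 in edgeR, 3 to 4 in limma and 0 with granulosa scaling. Oocyte scaling called 8, where 9028 of the 16218 genes tested were called as higher in SF. Leaving out 1 library gave 1 to 3, with 14594 to 15463 genes tested. In limma 3689 to 3853 of 13150 genes tested had an unadjusted p below 0.05, and 8129 genes did with granulosa scaling. Of the pathway genes 4 were called, but 0 in edgeR, in limma on log2(TPM + 0.1) and without the trend (7, 6 and 7 at unadjusted p below 0.05). In limma on log2(TPM + 1) 1 was called. Granulosa scaling called 7 of 20, against 45.6% of all genes, and oocyte scaling 15 of 21. With PF replicate 4 kept 2 were called, against 5.82% of all genes, and leaving out 1 library gave 2 to 6.

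Same-numbered PF and SF libraries deviated from their class means with correlations of 0.25, -0.02 and 0.40, and PF replicate 2 resembled SF replicate 1 more (0.26), so the numbers were not taken as pairs. With the replicate number as a block DESeq2 called 4077 of the 14586 genes tested. Among them were 4 of the 9 members (*INHA*, *TGFBR3*, *FST* and *ACVR2A*) and 8 of the 20 pathway genes tested.

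With granulosa scaling the log2 fold change was -0.45 for *INHA*, -1.22 for *INHBA*, -0.29 for *INHBB*, -0.24 for *FSTL3*, -0.91 for *ACVR1B*, -0.39 for *ACVR2A* and -0.80 for *ACVR2B*. With PF replicate 4 kept it was -0.80 for *INHBB* and -2.19 for *FSTL3*. With 1 library left out it was -3.25 to 5.52 for *INHBA*, lowest without SF replicate 3, and -0.084 to 2.61 for *INHBB*. The difference of the alpha to beta ratio was -0.032 with nothing added to the TPM and -1.84 within library numbers above 40. That of beta A to beta B was -1.30 below 40, and that of type II to type I receptors -1.03 above 40. With 1 library left out the log2 differences were -1.82 to 1.71, -1.33 to 2.59, 1.00 to 3.63 and -0.27 to 0.89 for the alpha to beta, beta A to beta B, antagonist to beta and receptor ratios. The beta A to beta B ratio with nothing added could not be computed, since *INHBB* was at 0 in 2 libraries. The causes of these changes were not tested. The 6 libraries allow no permutation p below 0.1, and the counts of *INHBB* limit what can be said of it.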

Other observations

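Other genes around the members differed between single libraries, and were chosen after their values were seen. *PMEPA1* and *SMAD7*, which restrain SMAD signaling, had 303 and 27.1 TPM in PF replicate 4, against 4.98 to 10.5 and 0 to 0.491 TPM in the other PF libraries. In SF *PMEPA1* had 2.03, 8.30 and 19.1 TPM and *SMAD7* 0.0446, 0.475 and 3.02 TPM, highest in SF replicate 3 in both cases. *SKIL*, another restraint on SMADs, had 0, 0 and 12.5 TPM in PF replicates 1 to 3, 23.4 TPM in PF replicate 4, and 6.77, 50.0 and 125 TPM in SF. Its log2 fold change of 3.91 ± 3.25 did not pass (DESeq2 adjusted p = 0.43), and without PF replicate 3 it did (14.7, DESeq2 adjusted p = 1.6e-13), a value set by the counts of 0 in the PF libraries left.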
